A study of Homo sapiens with 6 samples.

Results

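Ubiquitin-specific proteases are the largest family of deubiquitinases, and their genes were examined for how strongly they were transcribed and how much of their RNA was present at steady state in K562 cells. Members were the protein-coding genes whose symbol starts with USP followed by a digit, without chromosome Y and without the USP17L family. They numbered 51 of the 37192 genes matched to the annotation and had 53 counted transcripts, each treated as a transcription unit (TU), because USP50 had 3. One gene that the naming rule brings in, USP6NL, encodes a GTPase-activating protein for RAB proteins and no protease, and USP41 was not among the matched genes.

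Total RNA was sequenced in 4 libraries and nascent RNA by PRO-seq in 2 libraries of K562, an established human chronic myelogenous leukemia cell line with erythroid features, all from cells of a single flask, cultured in RPMI-1640 with fetal bovine serum and without any treatment. PRO-seq measures nascent RNA held by RNA polymerase that is engaged on the gene, whereas RNA-seq after removal of ribosomal RNA measures the RNA present at steady state. The study asked what the ratio of these measurements tells about RNA stability. The deposited values were raw read counts per TU, with 5732780 to 9002746 counts on TUs in the RNA-seq libraries and 6993816 and 7245632 in the PRO-seq libraries. Since the methods place all cells in that flask, the libraries of an assay are not separate cultures, and each p-value measures only the technical spread between them.

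Ubiquitin is a small protein that a cascade of enzymes attaches to other proteins, singly or as chains, and the marks send proteins to the proteasome, to lysosomes or into repair and signalling complexes. Ubiquitin-specific proteases are cysteine proteases that cut the mark off again, and most of what distinguishes one from another lies outside the shared catalytic core, in the domains and partner proteins that bring it to a substrate. In leukemia cells the family is known for guarding survival proteins and for steps of DNA repair that have been pursued as drug targets. USP9X protects the survival protein MCL1, USP7 acts on the ubiquitin ligase MDM2, and USP1 acts on PCNA and the Fanconi anemia proteins.

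The labelled identity of the cells held for the defining markers of the line. All 10 K562 markers looked at, among them GATA1, KLF1 and the fetal globin genes HBG1 and HBG2, were above 1 TPM in RNA-seq. Of 7 matched markers of other cell types 1 was above 1 TPM, the epithelial adhesion gene EPCAM at 120 TPM, and CD3E, MS4A1, CD79A, ALB, KRT5 and COL1A1 were each under 1 TPM.

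Levels are given in TPM, a read count scaled by length and by the library total. Exon length was used for RNA-seq and the TU span without 1000 bp for PRO-seq. Steady-state level spread more widely over the USP genes than nascent level. Over the 53 TUs, RNA-seq ran from 0.0249 TPM for USP6 to 174 TPM for USP16, and PRO-seq from 0.0601 TPM for a transcript of USP50 to 184 TPM for USP48. Both assays placed the genes in a similar order, with a Spearman correlation of 0.857 between PRO-seq and RNA-seq TPM over the 53 TUs, beside 0.835 over 14965 mRNAs with counts in both assays. Over the 43 USP genes that pass the level minimums given below the correlation was 0.740, and over the 8733 mRNAs that pass it was 0.551. These are descriptions across genes, which share the libraries and are not independent replicates. The summed level of the family was alike between libraries of an assay, at 1945 to 1987 TPM in RNA-seq and 2629 and 2682 TPM in PRO-seq, and the 10 highest genes held 60.9% of the RNA-seq sum.

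The 4 highest steady-state levels belonged to USP16, USP1, USP48 and USP22. USP48, a nuclear protease with histone H2A and Fanconi anemia proteins among its reported substrates, was at 145, 144, 144 and 151 TPM in RNA-seq replicates 1 to 4 and at 180.5 and 187 TPM in PRO-seq replicates 1 and 2. For USP22, the deubiquitinase of the SAGA coactivator complex, RNA-seq gave 139, 131, 142 and 126 TPM and PRO-seq 158 and 166 TPM. USP48 and USP22 also had the highest nascent levels of the family, and the libraries of an assay lay close together for both.

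Next in nascent level came USP36 and USP24. USP24 was at 67.4, 67.6, 69.5 and 69.4 TPM in RNA-seq and at 114 and 109 TPM in PRO-seq. USP36, a nucleolar protease, stood at 115 and 131 TPM in PRO-seq, behind only USP48 and USP22, yet its RNA-seq values of 16.1, 15.1, 16.2 and 13.0 TPM put it at rank 29 of 53. The plot of nascent against steady-state level shows USP36 far to the right of the other genes at its RNA-seq level.

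**Figure D1:**
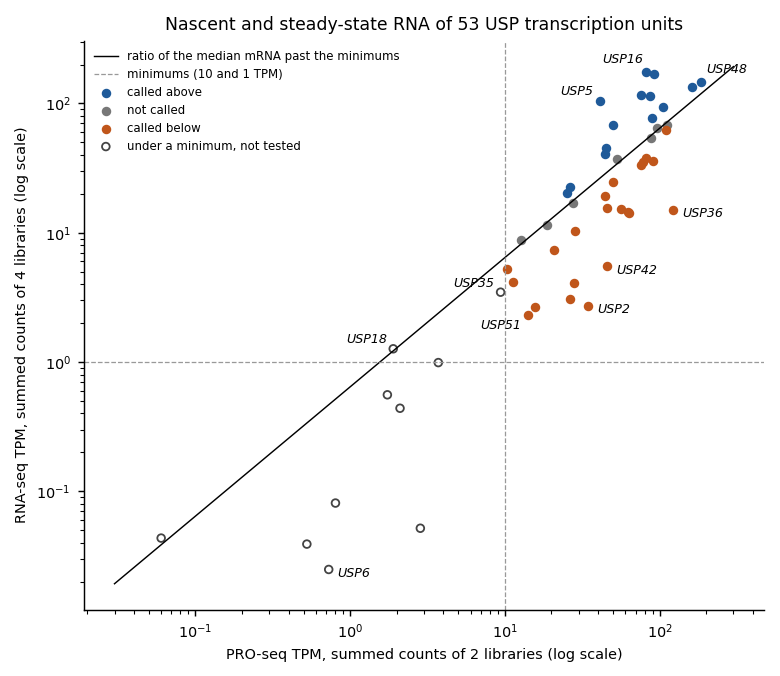
RNA-seq TPM against PRO-seq TPM of the 53 USP TUs, both on log scales and from counts summed over libraries. The line marks the ratio of the median mRNA and the dashed lines the minimums, 10 TPM for nascent and 1 TPM for steady-state RNA. Filled points are the 43 genes tested, coloured by the edgeR call, and open points the 10 TUs under a minimum.

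The relative half-life of an RNA was taken as its RNA-seq TPM divided by its PRO-seq TPM, a ratio without unit. It orders RNAs by stability where synthesis and decay are in balance and RNAs are elongated at alike rates. As the paper states, PRO-seq reads how many engaged polymerases sit on a gene, which depends on transcription and on elongation rate. The part of elongation rate in the ratio was not tested here. The ratio was formed where PRO-seq exceeded 10 TPM and RNA-seq exceeded 1 TPM. Differences are given on the log2 scale against the median mRNA. Of the 51 genes, 43 passed both minimums. On this scale they ran from 1.99 for USP5 down to -3.00 for USP2 and covered a 32.0-fold range of relative half-life.

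By edgeR, 14 of the 43 genes (32.6%) lay above the median mRNA at an adjusted p under 0.05, beside 45.4% of the 8733 mRNAs. Below it lay 22 (51.2%), beside 44.9% of mRNAs, and 7 were not called. Differences of over 1 on the log2 scale were called above for 6 genes and below for 10, which is 14.0% and 23.3% of members beside 26.6% and 26.2% of mRNAs. Each of the 36 called genes had the sign of its call in each of the 8 ratios of a single RNA-seq to a single PRO-seq library. These ratios reuse the libraries that gave the calls, so they are no separate check. The members were less dispersed than mRNAs at large, with an SD of log2 relative half-life of 1.18 against 1.68, and no test was made of that difference.

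The median member was 0.18 below the median mRNA in TPM ratio (SD over the 8 library combinations 0.058), and the sign of this small difference depended on the reference. Against the median of all TUs that pass the minimums, which lies 0.23 under that of mRNAs, the difference was 0.045. The reference of all mRNAs with at least 1 count has a median 0.63 lower, and with the minimums dropped on both sides the median of all 53 USP TUs was 0.17 over it. Of these 53 TUs 23 were then called above (42% of mRNAs) and 17 below (33.4% of mRNAs). Of the genes called below, USP12, USP14, USP15, USP19, USP30, USP32 and USP37 lay above this reference. The order of the genes and the differences between them do not involve the reference.

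**Figure D2:**
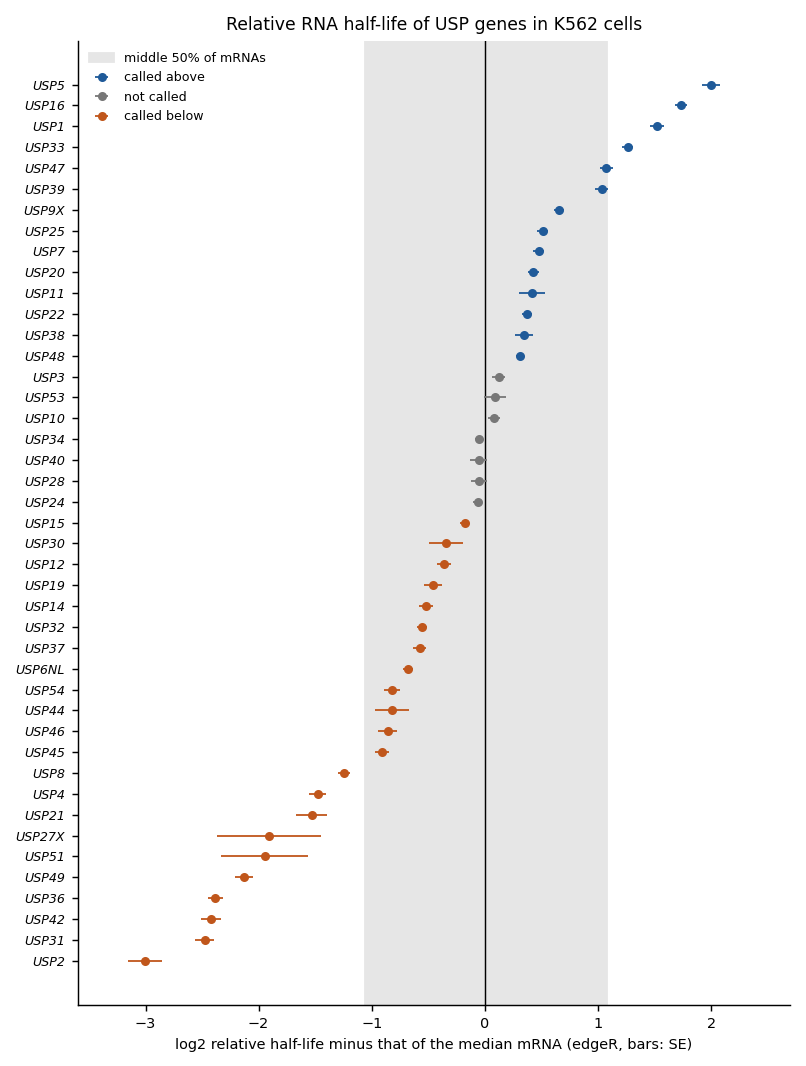
Log2 relative half-life of each of the 43 USP genes past the minimums, minus that of the median mRNA, from edgeR over 4 RNA-seq and 2 PRO-seq libraries; bars are SE. Colour gives the call and the grey band spans the quartiles of mRNAs, -1.06 to 1.08. USP5 at 1.99 and USP2 at -3.00 are the ends of the range.

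The gene with the highest relative half-life was USP5, which disassembles free ubiquitin chains so that ubiquitin can be used again. Its RNA-seq levels were 103, 107, 106 and 106 TPM and its PRO-seq levels 37.9 and 44.2 TPM. The gene was 3.99-fold over the median mRNA (log2 1.99, SE 0.08, edgeR adjusted p = 1.1e-20). USP16, which removes ubiquitin from histone H2A, was at 167, 184, 171 and 173 TPM in RNA-seq and at 81.6 and 80.6 TPM in PRO-seq. Its log2 relative half-life was 1.74 (SE 0.05, edgeR adjusted p = 1.7e-23). USP1, the PCNA and Fanconi anemia protease, had 166, 172, 166 and 174 TPM in RNA-seq and 97.9 and 86.1 TPM in PRO-seq, and its PRO-seq replicate 1 was the higher. It lay at 1.52 (SE 0.06, edgeR adjusted p = 1.5e-20).

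Next in order was USP33, which acts on receptors in membrane traffic, with 113, 120.4, 118 and 118 TPM in RNA-seq and 77.0 and 75.2 TPM in PRO-seq. It stood 1.26 over the median mRNA (SE 0.05). USP47, reported to act on DNA polymerase beta, had RNA-seq levels of 61.9, 69.4, 65.1 and 75.4 TPM and PRO-seq levels of 51.0 and 49.3 TPM. Its value of 1.07 (SE 0.05) and that of USP39, 1.03 (SE 0.06), differed by less than their errors. USP39, a splicing factor of the family that lacks protease activity, was at 114, 110.0, 123 and 109 TPM in RNA-seq and at 85.3 and 87.8 TPM in PRO-seq. All of these 6 genes held more TPM in each RNA-seq library than in each PRO-seq library. They were chosen by the ratio of these values, so this only describes them.

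At the other end stood USP2, a protease reported to act on cyclin D1 and in the circadian clock. RNA-seq gave 1.86, 3.19, 3.43 and 2.64 TPM and PRO-seq 31.4 and 37.2 TPM. The PRO-seq values were thus many times the RNA-seq values, and the gene lay 8.03-fold under the median mRNA (log2 -3.00, SE 0.15, edgeR adjusted p = 7.0e-18). USP31, reported to act in NF-kappa-B signalling, had 3.24, 3.20, 2.60 and 3.01 TPM in RNA-seq and 26.4 TPM in both PRO-seq libraries, for a value of -2.48 (SE 0.08).

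USP42 and USP36, close relatives of each other, came next from the bottom. For USP42 the RNA-seq libraries gave 5.56, 5.74, 6.09 and 4.59 TPM and the PRO-seq libraries 43.5 and 48.3 TPM, with a value of -2.42 (SE 0.09). USP36, whose levels are given above, lay at -2.38 (SE 0.07, edgeR adjusted p = 5.8e-25). The SE bars of USP31, USP42 and USP36 overlapped, so their order is not resolved.

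The remaining genes of the lowest 6 were USP49 and USP51, of the histone group. USP49, which acts on histone H2B, was at 3.90, 4.23, 3.69 and 4.51 TPM in RNA-seq and at 26.7 and 29.0 TPM in PRO-seq, with a value of -2.13 (SE 0.08). USP51 had 1.33, 2.78, 2.39 and 2.95 TPM in RNA-seq, where replicate 1 was the lowest, and 11.9 and 16.1 TPM in PRO-seq. It rested on 31 PRO-seq counts, and its value of -1.95 had an SE of 0.39. In the plot of single libraries the RNA-seq points of all these 6 genes lie under both PRO-seq points. These genes, too, were chosen by that ratio.

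**Figure D3:**
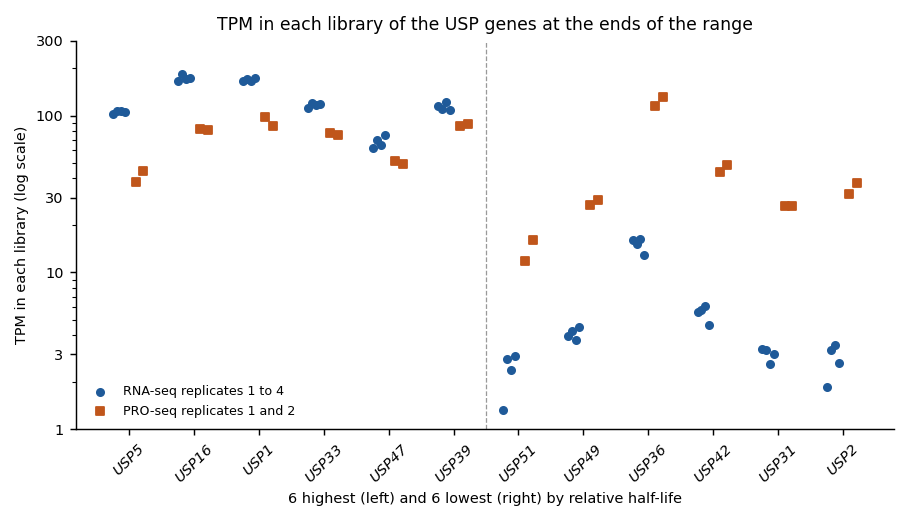
TPM in each library on a log scale for the 6 USP genes of highest and the 6 of lowest relative half-life. Circles are the 4 RNA-seq libraries and squares the 2 PRO-seq libraries. USP5 to USP39 have RNA-seq values over PRO-seq values, and USP51 to USP2 the reverse, as genes chosen by this ratio.

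AU-rich elements in 3′UTRs are binding sites of proteins that speed up or slow down mRNA decay. The nonamer UUAUUUAUU was searched on the transcript strand in annotated 3′UTRs, overlaps included. Only counted transcripts of the protein-coding type with a complete coding sequence were searched. It stood in 6 of the 40 such USP genes past the minimums (15%), and in 695 of 7589 mRNAs (9.16%). Those 6 were USP2, USP31, USP8, USP32, USP12 and USP15, all called below the median mRNA by edgeR, beside 448 of the 695 mRNAs with the nonamer (64.5%) and 44.9% of all mRNAs. Against the reference of mRNAs with at least 1 count, USP12 (0.27), USP15 (0.45) and USP32 (0.08) lay above it. Of the 6 genes with the lowest relative half-life, USP42, USP49 and USP51 had no site. USP36 was not searched, since its counted transcript is annotated for nonsense-mediated decay and not as protein-coding. The sites are shown because USP2 and USP31, also among those 6, carry at least 1. Each is printed 5′ to 3′ as RNA, with 9 bases on either side, the nonamer in capitals, and coordinates on GRCh37 from the GENCODE annotation, to which transcripts were matched by identifier.

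USP2, chr11:119226421-119226447, minus strand: cucucccuuUUAUUUAUUcucuuaaca

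USP31 first site, chr16:23079312-23079338, minus strand: uaaagauguUUAUUUAUUuagaacccc

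USP31 second site, chr16:23072892-23072918, minus strand: ugauuucugUUAUUUAUUuguauguuu

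USP8 first site, chr15:50794559-50794585, plus strand: cucccaaagUUAUUUAUUuuuauuuga

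USP8 second site, chr15:50795157-50795183, plus strand: acacaggagUUAUUUAUUcaauauucc

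USP12, chr13:27642734-27642760, minus strand: auuuuuuccUUAUUUAUUuuacuuaaa

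USP15, chr12:62799601-62799627, plus strand: uuugguaaaUUAUUUAUUuauguuagc

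USP32, chr17:58255336-58255362, minus strand: guauaaauaUUAUUUAUUucagguagc

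USP6, chr17:5077508-5077534, plus strand: guauaaauaUUAUUUAUUugagguaga

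USP6 is a hominoid gene derived in large part from USP32, and the bases around its site are nearly those of USP32. It was under both minimums in K562 and was not tested against the thresholded set. The genes with a site also had longer 3′UTRs, with a median of 4884 bases against 1592 bases for the members without one, and among mRNAs the medians were 3171 and 1116 bases. The median log2 relative half-life was -0.90 with a site and -0.05 without among members, and -0.60 and 0.07 among mRNAs. The part of 3′UTR length in these differences was not tested, and a match to these letters does not show that a protein was bound.

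Of the genes for ubiquitin recycling and the proteasome, USP5 was described above. USP14, which trims chains on the proteasome, was called below the median mRNA at -0.52 (SE 0.06) but lay at 0.11 against mRNAs with at least 1 count. In RNA-seq it was at 39.2, 32.3, 36.3 and 32.5 TPM and in PRO-seq at 75.1 and 81.4 TPM. USP13, the close relative of USP5, was near silent, at 0.286 to 0.747 TPM in RNA-seq and at 1.37 and 2.10 TPM in PRO-seq. Of this pair, USP5 gave nearly all of the RNA in both assays.

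The 10 genes for histone and chromatin substrates all passed the minimums and had the lowest median of the 6 roles, -1.72. By edgeR 7 were called below the median mRNA (70.0%, beside 44.9% of mRNAs), 2 of 10 above (beside 45.4%) and 1 was not called. Below by over 1 were 6 (60.0%, beside 26.2% of mRNAs). The median of all 43 members was -0.18 on the edgeR scale and the SD of the group was 1.41. The members called below were USP21, USP27X, USP36, USP42, USP44, USP49 and USP51, and of these USP44 was no longer called against mRNAs with at least 1 count (-0.19, SE 0.16, edgeR adjusted p = 0.28). USP16 at 1.74 and USP22 at 0.37 were above. Of those below, USP27X and USP51 rested on 17 and 31 PRO-seq counts. The role lists were drawn up with earlier results of these data known, and some genes could stand in another list. USP48, with histone H2A among its reported substrates, was listed under DNA damage, at 0.31. The nucleolar protease USP36 was listed here.

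USP21, which acts on histone H2A, was at 14.2, 14.1, 14.0 and 14.1 TPM in RNA-seq and at 61.9 and 65.1 TPM in PRO-seq. Its value was -1.53 (SE 0.14). USP3, another H2A protease, was at 35.8, 38.3, 36.2 and 37.5 TPM in RNA-seq and at 57.0 and 48.8 TPM in PRO-seq, and the difference between its PRO-seq libraries decided its call. At 0.12 (SE 0.06, edgeR adjusted p = 0.058) it was not called, without PRO-seq replicate 1 it was called above at 0.25, and without PRO-seq replicate 2 it lay at -0.0051. USP44, the H2B protease related to USP49, had 4.04, 4.62, 4.49 and 3.25 TPM in RNA-seq and 10.7 and 12.0 TPM in PRO-seq.

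Of the genes for DNA damage and replication, 9 of 10 passed the minimums, and 5 of these were called above (55.6%, beside 45.4% of mRNAs), 2 below (22.2%, beside 44.9%) and 2 not, with a median of 0.31. None was below by over 1, and USP1 and USP47 were above by over 1. USP7, which removes ubiquitin from MDM2, was at 98.8, 88.4, 96.1 and 95.4 TPM in RNA-seq and at 105 and 107 TPM in PRO-seq, with a value of 0.47 (SE 0.05). USP48 at 0.31 (SE 0.04) and USP11, which acts with BRCA2, at 0.42 (SE 0.12) were called above by less. Equal or nearly equal TPM in both assays thus went with a place over the median mRNA.

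Both members of this group called below were genes of the cell cycle and of repair. USP37, which acts on cyclin A, lay at -0.57 (SE 0.06) but at 0.05 against mRNAs with at least 1 count. USP45, reported to act on ERCC1, lay at -0.91 (SE 0.06) and stayed below under that reference at -0.28. USP10, which binds the stress granule protein G3BP1, and USP28, a protease of MYC, were not called, at 0.08 and -0.05. Of this group USP29 was near silent, with 2 counts in all RNA-seq libraries and 3 in PRO-seq.

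**Figure D4:**
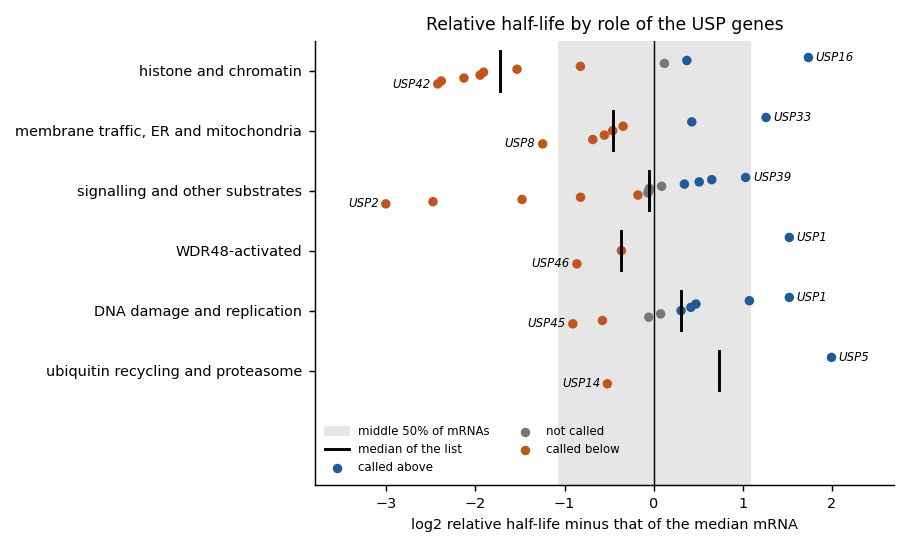
Log2 relative half-life, minus that of the median mRNA, of the USP genes past the minimums by role. Each point is a gene, coloured by its edgeR call, the black bar is the median of the list and the grey band spans the quartiles of mRNAs. The histone and chromatin list has a median of -1.72 and the DNA damage and replication list one of 0.31; USP1 is in both of the lists that name it.

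USP1, USP12 and USP46 share WDR48 as an activating partner, and they differed. USP1 lay at 1.52, whereas USP12 at -0.36 (SE 0.06) and USP46 at -0.86 (SE 0.08) were called below, USP12 with the change of sign given above. USP12 was at 22.7, 26.7, 25.1 and 25.2 TPM in RNA-seq and at 50.7 and 48.8 TPM in PRO-seq. USP46 had 7.46, 7.37, 7.24 and 7.28 TPM in RNA-seq and 21.2 and 20.3 TPM in PRO-seq.

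Of the genes for membrane traffic, the endoplasmic reticulum and mitochondria, 7 of 9 passed, 2 were called above (28.6%, beside 45.4% of mRNAs) and 5 below (71.4%, beside 44.9%). The median of the list was that of USP19, at -0.46, and 0.17 against mRNAs with at least 1 count. Those above were USP33 and its relative USP20 (0.43, SE 0.05). USP8, which works on receptors at endosomes, was the lowest at -1.24 (SE 0.05) and kept a value of -0.62 under the other reference. It had 15.7, 14.4, 15.7 and 15.6 TPM in RNA-seq, with replicate 2 apart from the rest, and 56.7 and 56.3 TPM in PRO-seq.

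USP6NL, the RAB GTPase-activating protein, lay at -0.68 (SE 0.04). Without it 14 of 42 genes were above and 21 below, with a median of -0.12. USP32, a membrane-anchored protease, lay at -0.55 (SE 0.04), and USP19, anchored in the endoplasmic reticulum, at -0.46 (SE 0.08). USP30, which sits on the mitochondrial outer membrane and opposes mitophagy, was the weakest call of all, at -0.34 (SE 0.15, edgeR adjusted p = 0.031). Its RNA-seq levels were 5.18, 5.89, 3.55 and 5.91 TPM, its PRO-seq levels 9.81 and 10.8 TPM, and without RNA-seq replicate 3 it lay at -0.23 and was not called.

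Of the genes for signalling and other substrates, 13 of 18 symbols passed, 4 were called above (30.8%, beside 45.4% of mRNAs), 5 below (38.5%, beside 44.9%) and 4 not, with a median of -0.05. Those above were USP39, USP9X (0.65, SE 0.05), USP25 (0.51, SE 0.05) and USP38 (0.34, SE 0.08). USP9X had almost the same summed TPM in both assays, 45.6 in RNA-seq and 45.3 in PRO-seq. Those below were USP2, USP31, USP4, USP54 and USP15, which span -3.00 to -0.18. USP24, USP34, USP40 and USP53 were not called, and they lay at -0.07, -0.05, -0.05 and 0.09.

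Close relatives within the family lay 0.04 to 2.64 apart in log2 relative half-life. The SD of log2 relative half-life over the 43 members was 1.18. Whether relatives differ more or less than other members was not tested. Of groups of 3 relatives the pair furthest apart is given. For each pair the difference of their log2 TPM was taken within every library, and its mean in RNA-seq minus its mean in PRO-seq is the difference in log2 relative half-life. With 4 RNA-seq and 2 PRO-seq libraries no exact permutation test over libraries could pass 0.05, so the ranges and SE are given without a test. Each SE of a pair comes only from the spread of these few differences, with no counting error modelled. It can therefore fall under the edgeR SE of a single gene.

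USP16 and USP45 were the pair furthest apart. Their log2 TPM differed by 3.39 to 3.60 in the RNA-seq libraries and by 0.81 to 0.85 in the PRO-seq libraries, a difference of 2.64 in log2 relative half-life (SE 0.05) or 6.25-fold. USP45 was at 15.5, 15.1, 15.6 and 16.5 TPM in RNA-seq and at 45.3 and 45.9 TPM in PRO-seq. Both the nascent and the steady-state level were higher for USP16.

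USP22, USP27X and USP51 share the SAGA subunits that activate them. USP22 exceeded USP51 by 5.42 to 6.70 in log2 TPM in RNA-seq and by 3.36 to 3.73 in PRO-seq, a difference in log2 relative half-life of 2.35 (SE 0.34). USP27X was at 2.26, 3.41, 2.36 and 2.49 TPM in RNA-seq and at 18.6 and 12.8 TPM in PRO-seq. Its PRO-seq values rested on 17 counts and its value of -1.91 had an SE of 0.46. As a gene of 1 exon that resembles USP22, it could lose reads that align to both. Records not aligned uniquely were kept apart from the counts on TUs. The value is therefore uncertain.

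Among USP4, USP11 and USP15, relatives with a common domain order, the nascent and steady-state orders disagreed. USP11 was below USP4 in PRO-seq, by 1.21 to 1.30 in log2 TPM, and above it in RNA-seq, by 0.48 to 0.84, a difference of 1.90 in log2 relative half-life (SE 0.10). USP4 was at 13.6, 15.0, 12.6 and 16.5 TPM in RNA-seq and at 60.1 and 65.3 TPM in PRO-seq, whereas USP11 was at 24.5, 21.5, 20.7 and 23.0 TPM and at 25.9 and 26.5 TPM. USP15 was the highest of the 3 in both assays, with 61.2, 60.2, 65.6 and 65.3 TPM in RNA-seq and 114 and 107 TPM in PRO-seq.

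USP21 was 1.49 over USP2 in log2 relative half-life (SE 0.22), and USP44 was 1.29 over USP49 (SE 0.17). USP53 was 0.92 over USP54 (SE 0.13). USP53 had 7.79, 9.12, 8.78 and 9.43 TPM in RNA-seq and 13.3 and 12.3 TPM in PRO-seq, and USP54 had 9.76, 11.3, 10.6 and 9.51 TPM and 27.2 and 29.5 TPM. The pair had similar steady-state levels from unlike nascent levels.

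USP33 was 0.83 over USP20 (SE 0.07), which was at 78.6, 77.2, 75.8 and 76.2 TPM in RNA-seq and at 86.4 and 91.7 TPM in PRO-seq. USP47 was 0.60 over USP7 (SE 0.09), and USP25 was 0.57 over USP28 (SE 0.02). The edgeR SE of USP25 and USP28 singly were 0.05 and 0.07, so the SE of this pair is too small. USP25 had 39.4, 41.4, 40.3 and 42.0 TPM in RNA-seq and 45.3 and 43.7 TPM in PRO-seq, and USP28 had 16.1, 17.5, 16.8 and 18.1 TPM and 27.9 and 27.4 TPM. USP12 was 0.50 over USP46 (SE 0.05).

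One pair kept together. USP36 and USP42 differed by 1.40 to 1.53 in log2 TPM in RNA-seq and by 1.40 to 1.44 in PRO-seq, so that the ranges overlapped. Their difference in log2 relative half-life was 0.04 (SE 0.04). The edgeR SE of USP36 and USP42 singly were 0.07 and 0.09, so the difference is less precise than the SE of the pair. Both were among the lowest 6, at nascent levels that differed.

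The 8 genes that did not pass were USP6, USP13, USP18, USP26, USP29, USP35, USP43 and USP50. Nearest to the PRO-seq minimum from below was USP35, at 7.79 and 10.9 TPM in PRO-seq and 4.52, 2.89, 2.92 and 3.39 TPM in RNA-seq. Nearest from above were USP30 at 10.3 TPM, USP44 at 11.3 TPM and USP53 at 12.8 TPM from summed counts. USP18, the protease of the interferon-induced modifier ISG15, was just over the RNA-seq minimum, at 1.80, 1.44, 0.618 and 0.898 TPM, but at 1.77 and 2.02 TPM in PRO-seq.

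USP26 had 0.326, 0.397, 0.762 and 0.362 TPM in RNA-seq and 2.49 and 1.72 TPM in PRO-seq. For the USP50 transcript nearest the RNA-seq minimum the values were 0.866, 0.820, 2.58 and 0 TPM, and 7.50 and 0 TPM in PRO-seq, from 4 counts in each assay. With no minimums and at least 1 count in each assay, USP26, USP43, USP6 and 1 transcript of USP50 were called below the median mRNA, and USP13, USP18, USP29 and USP35 were not called. USP6, USP43 and USP29 rested on fewer than 5 RNA-seq counts each, and the USP50 transcript called below on 1 RNA-seq count and 67 PRO-seq counts.

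Compared with other mRNAs past the minimums, the USP genes were long. Their median exon length was 4976 bases against 3064 bases, their median span 71810 bp against 29515 bp, and their median number of exons 18 against 9. At the last base of codons the median share of G or C was 43.4% against 57.5%. The density of splice junctions, at a median of 3.40 against 3.08 per kb of exon, was alike.

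Splice junction density had a Spearman correlation with relative half-life of 0.39 over the 43 members and 0.37 over the 8733 mRNAs. USP27X, USP51 and USP49, with 0, 0.43 and 0.66 junctions per kb, stood at or under -1.91, and USP5 and USP16, with 6.01 and 5.74, stood highest. USP34, the gene with 80 exons and 6.77 junctions per kb, lay at -0.05. The number of exons gave 0.32 over members and 0.06 over mRNAs, exon length -0.15 and -0.33, and 3′UTR length -0.18 and -0.30. For G or C at the last base of codons it was -0.34 over 40 members and -0.21 over 7589 mRNAs. All these are descriptions, since genes share the libraries and exon length also enters the RNA-seq TPM.

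**Figure D5:**
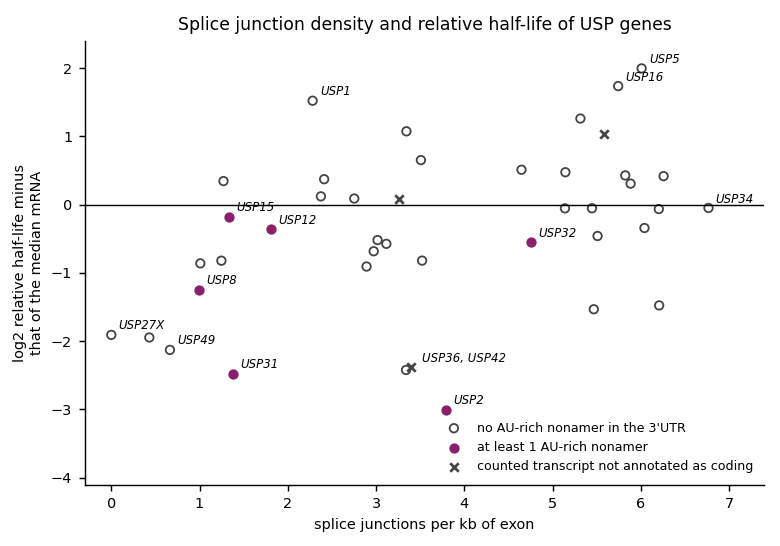
Log2 relative half-life, minus that of the median mRNA, against splice junctions per kb of exon for the 43 USP genes past the minimums. Filled points are the 6 genes with the AU-rich nonamer in the 3′UTR and crosses the 3 whose counted transcript is not of the protein-coding type. Genes with under 1 junction per kb stand at the lower left, and USP5 and USP16 at the upper right.

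Deubiquitinases of other families were called about as often as mRNAs at large. Of 36 symbols listed 35 were matched and 26 passed the minimums, with 11 above and 11 below the median mRNA by edgeR (42.3% each, beside 45.4% and 44.9% of mRNAs) and a median of -0.02. The highest were the metalloproteases PSMD14 of the proteasome lid (3.74, SE 0.05) and COPS5 of the COP9 signalosome (3.47, SE 0.12), then ZUP1 (1.24, SE 0.07). PSMD14 and COPS5 thus lay over every USP gene, although COPS5 was counted on a transcript of 764 exon bases without a defined coding sequence. The lowest were TNFAIP3, the brake on NF-kappa-B (-2.39, SE 0.14), OTUD1 (-2.16, SE 0.39) and OTUD7B (-1.60, SE 0.06).

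Of 24 partners and substrates of USP proteins 23 were matched and 22 genes passed, with 11 of 22 above (beside 45.4% of mRNAs) and 9 below (40.9%, beside 44.9%) and a median of 0.13. The 3 highest were G3BP2 (3.40, SE 0.08), a relative of the USP10 partner G3BP1, PCNA (2.93, SE 0.05), a substrate of USP1, and the proteasome subunit PSMD2 (2.86, SE 0.07). G3BP2 was counted on a transcript of 426 exon bases, so its level rests on a short stretch. Among those called below were DMWD (-1.85, SE 0.13) and SMURF1 (-1.11, SE 0.06). WDR48, the activator of USP1, USP12 and USP46, lay at 0.74 (SE 0.07), between USP1 and the other two.

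The transcript that was counted limits some of these values. For 20 of the 43 genes it was not the canonical one, and for USP30 (51.1%), USP47 (72.3%), USP2 (78.0%) and USP4 (79.2%) it held under 80% of the canonical exon bases. USP10 and USP36 were counted on a transcript annotated for nonsense-mediated decay and USP39 on one without a coding sequence. Of the 43, 8 overlapped a protein-coding gene on the opposite strand, among them USP8 with USP50, USP14 with THOC1 and USP47 with DKK3, and whether reads were counted by strand is not stated in the methods or labels. USP49 also overlapped a gene on the same strand. What share of their counts came from the neighbour was not tested.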

How the data were processed

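For each of 4 total RNA-seq and 2 PRO-seq libraries of K562 cells the authors deposited raw read counts per transcript, without normalization. The submitters' processing notes name cutadapt, HISAT2, HTSeq and GRCh38, and the methods leave out 500 bp at both TU ends in PRO-seq. Tool versions and whether counting used strand were not given in the sources used.

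Rows that name no TU held 66.5% to 68.6% of the RNA-seq records and 86.5% and 88.6% of the PRO-seq records and were left out of totals and tests. The 42371 transcripts were joined by identifier to GENCODE lifted to GRCh37, and 88.1% matched. TPM came from counts summed over the libraries of an assay. All 9929 TUs whose PRO-seq exceeded 10 TPM and whose RNA-seq exceeded 1 TPM were fitted in R (version 4.3.3) with edgeR (version 4.0.16), by the quasi-likelihood test with TMM and length offsets. RNA-seq was compared with PRO-seq with the median mRNA set to 0 (two-sided), and p-values were Benjamini-Hochberg adjusted over all TUs. The steps were tested on simulated data. Alternatives were DESeq2 (version 1.42.0), other minimums, references and lengths, and each library left out. RNA-seq replicates were also summed in pairs, 1 with 3 and 2 with 4. Records not aligned uniquely made up 28.0% and 27.9% in replicates 1 and 3, and 24.9% and 24.5% in replicates 2 and 4. The labels do not say whether these pairs share a preparation. If they do, the 4 RNA-seq libraries are not 4 separate preparations in the p-values and SE. Counting error and depth enter through the spread of counts that edgeR estimates, and without molecular identifiers a read need not be a separate molecule.

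Every member may be named. Values in every library are given for the 6 highest and 6 lowest genes, the 4 highest by TPM in each assay, those nearest the minimums, and close relatives of which at least 2 passed. For other lists the 3 highest and 3 lowest are given, and some genes of these lists are not reported here. The members, lists and tests were chosen with earlier results of these data known. The published libraries that the study also used were not analysed here.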

Additional observations from a re-analysis of the deposited data

Results flagged for a closer look

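In 1 of the 43 groups of 4 RNA-seq values tested, a library stood apart by Dixon's criterion. USP8 was at 14.4 TPM in RNA-seq replicate 2, and its other 3 values were 15.6 to 15.7 TPM. Chance alone picks out about 1 in 20 such groups.

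Noncoding RNAs and pseudogenes that carry a USP name were outside the comparisons above, and 13 of the 22 TUs of this kind had more than 3 counts in an assay, the level up to which an observed count of 0 is still possible. The rest are 9 TUs, of which 7 had no count in either assay.

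Divergent transcripts start near a USP gene and run the other way. USP38-DT had 284 PRO-seq counts and 0 RNA-seq counts, and USP12-DT had 13 PRO-seq counts and 0 RNA-seq counts. USP34-DT had 26 RNA-seq counts and 327 PRO-seq counts, and USP46-DT 48 RNA-seq counts and 22 PRO-seq counts. These last 2 passed the minimums. By edgeR without minimums they lay at -2.29 (SE 0.26) and -2.02 (SE 0.47) against mRNAs with at least 1 count. On that same reference USP34 itself lay at 0.58 and USP46 at -0.23. USP27X-DT had 41 RNA-seq and 3 PRO-seq counts.

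Of the antisense RNAs, USP3-AS1 had 7 RNA-seq counts and 819 PRO-seq counts. Of the transcripts of USP2-AS1, 1 had 6 RNA-seq and 40 PRO-seq counts and the other 39 RNA-seq and 377 PRO-seq counts. USP30-AS1 had 4 RNA-seq and 2 PRO-seq counts, and USP7-AS1 had 0 RNA-seq and 8 PRO-seq counts. Each overlaps or adjoins a USP gene on the opposite strand, and without the strand setting the share of reads from the partner gene was not tested.

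Of the pseudogenes, USP8P1 had 69 RNA-seq counts and USP24P1 had 26, both with 0 PRO-seq counts, and USP32P4 had 14 PRO-seq counts and 0 RNA-seq counts. These sequences resemble their parent genes, and which gene the reads came from was not tested.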

How the results depend on the processing

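The replicate numbers did not pair the assays, since deviations of RNA-seq and PRO-seq libraries with the same number had a correlation of -0.0113 over 9841 TUs. With a replicate block 14 USP genes were above and 21 below, and the block changed no other call than that of USP30. With RNA-seq replicates 1 and 3 summed and 2 and 4 summed, 14 were above and 22 below. Of 681 values of single members under the alternatives, 614 kept their direction and side of the threshold, 30 lost their call, 16 gained one and 21 changed sign, and 14 of the 43 genes were the same under every alternative. With 1 library left out, 14 to 16 USP genes were above, 21 to 23 below and 42 to 44 past the minimums, the median difference was -0.224 to -0.153 and the Spearman correlation 0.844 to 0.857. Over the same settings other deubiquitinases were above in 11 and below in 10 to 11, and partners above in 11 and below in 8 to 9.

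A test for a difference of over 2-fold called 4 of 43 USP genes above and 10 below. It called 5 and 4 of 26 other deubiquitinases, and 7 and 3 of 22 partners. The share of all mRNAs called by this test is not given here, so these counts are not set against it. This test asks for a larger difference by construction. With at least 1 count and no TPM minimums, 23 of 53 USP TUs, 18 of 30 other deubiquitinases and 19 of 23 partner TUs were above, beside 42% of mRNAs. Of these lists 17, 6 and 4 were below, beside 33.4% of mRNAs. Against the median of all TUs 5 partners were below. The median difference was -0.107 with minimums of 20 and 2 TPM, and it turned to 0.169 at 1 count and to 0.0453 against all TUs. The Spearman correlation was 0.631 with minimums of 20 and 2 TPM, 0.740 with those of 10 and 1 TPM, 0.796 with 10 counts and 0.838 without length.

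At 1 count the sign turned for USP12 (0.27), USP14 (0.11), USP15 (0.45), USP19 (0.17), USP24 (0.56), USP28 (0.57), USP30 (0.28), USP32 (0.076), USP34 (0.58), USP37 (0.054) and USP40 (0.57). Against all TUs it turned for USP15 (0.049), USP24 (0.16), USP28 (0.17), USP34 (0.18) and USP40 (0.17). At 10 counts it turned for USP24 (0.049), USP28 (0.059), USP34 (0.065) and USP40 (0.061). A lower reference shifts every gene by the same amount, which these alternatives do by construction. USP3 turned to -0.0051 without PRO-seq replicate 2 and was called above at 0.249 without PRO-seq replicate 1.

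USP30 lost its call with DESeq2, at 10 counts, against all TUs, with the replicate block and without RNA-seq replicate 3. USP10 was called above without PRO-seq replicate 1 (0.14). Depth limits USP27X and USP51, with 17 and 31 PRO-seq counts.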
